A study of Mus musculus with 2 samples.

Results

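Histones package DNA into nucleosomes. The genes described are the mouse histone genes counted by a 3′ single-cell assay, chosen as those whose symbols begin with Hist1h to Hist4h, H2af or H3f3 and that had at least 10 UMIs (unique molecular identifiers, tags that each mark 1 captured RNA molecule) over both deposited matrices. Of 81 matching genes among the 27998 listed, 58 met that minimum. They comprised 50 replication-dependent histone genes, named Hist, and 8 replacement histone genes, named H2af or H3f3. Membership rested on names and on the summed count, not on any difference between libraries or cells.

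Replication-dependent histone genes lie in clusters and supply the bulk of histone while DNA is copied. Their messenger RNAs typically end in a conserved stem-loop instead of a poly(A) tail, and stem-loop binding protein, encoded by Slbp, binds that structure during processing and translation. Replacement histones such as H2A.Z and H3.3 are made throughout the cell cycle from polyadenylated messages and exchange into chromatin outside replication. Polyadenylated messages of some clustered genes, among them Hist1h2bc and Hist1h1c, have been described in differentiated cells, and an assay primed on poly(A) is blind to most mature stem-loop messages.

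The cells were mouse primary leukaemia cells driven by the MLL-AF9 fusion oncogene and carrying Cas9, a nuclease that an sgRNA directs to its DNA target. Cells of the Jumonji library carried an sgRNA to the Jumonji domain of Jmjd1c, the gene of a histone demethylase family member. Cells of the Renilla library carried an sgRNA to Renilla luciferase, a control sequence that mouse cells lack. Both groups shared the fusion, Cas9 and culture in RPMI medium with 10% FBS, 1% P/S and interleukin-3 at 10 ng/ml. The sources used here do not give the strain, the animals, the time after sgRNA delivery or the number of guides, clones or cultures per library. Each group had 1 library, so no test between groups was possible and no p-value is given.

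After filtering, the Jumonji library had 575 cells and 12809661 UMIs, with a median of 22123 UMIs per cell. The Renilla library had 608 cells and 14418743 UMIs, with a median of 23528. The libraries shared 0 cell barcodes. Jmjd1c, the targeted gene, had 1435 UMIs (112 CPM, the count scaled to the library total) in the Jumonji library and 2025 UMIs (140.4 CPM) in the Renilla library, and a count of 3′ ends does not check an edit inside the gene. All 11 leukaemia and myeloid progenitor markers were detected, with summed levels of 2850 CPM in the Jumonji library and 5767 CPM in the Renilla library. All 9 neutrophil and monocyte maturation markers were higher in the Jumonji library, with summed levels of 1811 CPM in the Jumonji library and 246 CPM in the Renilla library. Of 6 T and B lymphoid markers, 4 had 0 UMIs in both libraries, and the list summed to 0.859 CPM in the Jumonji library and 1.87 CPM in the Renilla library. Of 6 erythroid markers and of 6 stromal and endothelial markers, 3 each had 0 UMIs, and no sum of either list passed 19.4 CPM in the Jumonji library or 13.8 CPM in the Renilla library.

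The stem-loop was searched in the GENCODE M21 transcripts (mm10) of 67 replication-dependent genes, since a 3′ assay counts reads near the ends of annotated transcripts. Of these genes, 22 had a stem-loop with no transcript running more than 100 bases past it, and 17 of the 22 were members. A further 22 genes had a transcript running more than 100 bases past the stem-loop, with 18 members among them. In 23 genes, with 13 members, no stem-loop of the searched form was found. Some of those members have short annotated transcripts, such as Hist1h2bl with 381 bases and Hist1h3i with 411 bases. A stem-loop past the annotated end would be missed, so this group is one of annotation and does not show that the genes lack a stem-loop. A poly(A) signal (AATAAA or ATTAAA) stood in the last 40 bases of 12 of the 22 transcripts that ran on, and in 1 of the 22 that stopped early. The median was 51.0 UMIs per gene for the genes that ran on and 32.5 UMIs per gene for those that stopped early. At least 100 UMIs were reached by 10 genes that ran on and by 2 that stopped early, Hist1h2ap and Hist1h2bj.

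The most common stem-loop, found in 19 members, and those of Hist1h4i and H2afx are shown because they differ from it at few bases. Each is 16 bases long, and capitals mark the whole stem-loop.
Hist1h1e and Hist1h1c: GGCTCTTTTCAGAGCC
Hist1h4i: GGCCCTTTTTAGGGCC
H2afx: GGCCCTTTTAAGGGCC
H2afx, the gene of H2A.X, the variant that is phosphorylated at DNA breaks, was the single replacement gene in which a stem-loop was found. Its annotated transcript ran 822 bases past it. The annotated transcripts of Hist1h4i, Hist1h1c and Hist1h1e ran 330, 840 and 1153 bases past theirs.

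Hist1h2ap, an H2A gene, stood apart from the other genes that stop early. It had 2412 UMIs over all deposited barcodes, although its annotated transcript ended 3 bases past the stem-loop and carried no poly(A) signal. A run of 12 A stands directly before the stem-loop, and both are printed here with the run in capitals.
Hist1h2ap (chr13:21833026-21833507, minus strand, mm10): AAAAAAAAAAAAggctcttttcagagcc
A run of 12 or more A within the last 300 bases was found in 1.35% of 141767 annotated transcripts. Hist1h2ao, a copy with the same letters at that site, had 7 UMIs and was not a member. All 50-base stretches in the last 300 bases of Hist1h2ap also occur in other transcripts, so the gene of origin of its UMIs is uncertain.

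Hist1h2bc, an H2B gene, had 716 UMIs over all barcodes with no stem-loop of the searched form in its longest transcript. That transcript held a poly(A) signal followed by a run of 8 A, 418 bases before its end, and capitals mark both.
Hist1h2bc (chr13:23684199-23692908, plus strand, mm10): AATAAAtgtcatgtaaagcAAAAAAAAtg
Whether the UMIs of either gene came from priming on such runs was not tested, since the deposited counts give no read positions.

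**Figure D1:**
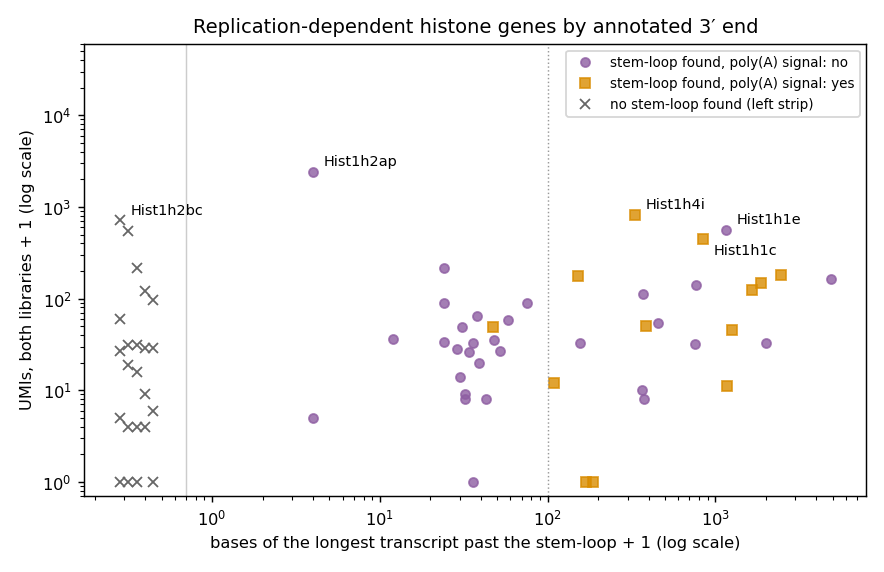
Each point is 1 of 67 replication-dependent histone genes, placed by the most bases that an annotated transcript of it runs past the stem-loop (x axis, plus 1, log scale) and its UMIs over both libraries (y axis, plus 1, log scale). Crosses in the left strip are the 23 genes with no stem-loop found, the dotted line marks 100 bases, and Hist1h2ap is the highest point, 3 bases past its stem-loop.

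Set side by side, the classes differed little between libraries in their sums. Replication-dependent histones summed to 3923 UMIs (306 CPM) in the Jumonji library and 4230 UMIs (293 CPM) in the Renilla library, a log2 ratio of 0.06 (95% counting interval -0.0010 to 0.13). Replacement histones summed to 121769 UMIs (9506 CPM) in the Jumonji library and 137707 UMIs (9551 CPM) in the Renilla library, a log2 ratio of -0.0067 (-0.018 to 0.0044). All intervals are exact, cover counting error only and say nothing of the spread between cultures, and fewer cells with a message cannot be told apart in a sum from less message per cell. Histone UMIs were 0.981% of all UMIs in the Jumonji library and 0.984% in the Renilla library. Replication-dependent genes gave 3.12% of histone UMIs (Clopper-Pearson 95% interval 3.03 to 3.22) in the Jumonji library and 2.98% (2.89 to 3.07) in the Renilla library. Hist1h2ap alone gave 29.2% of replication-dependent UMIs in the Jumonji library and 28.5% in the Renilla library.

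Within the flat class sum, histone types differed in opposite directions. Linker H1 genes, which bind DNA between nucleosomes, summed to 939 UMIs (73.3 CPM) in the Jumonji library and 838 UMIs (58.1 CPM) in the Renilla library, a log2 ratio of 0.33 (0.20 to 0.47). Replication-dependent H2A genes summed to 126 CPM in the Jumonji library and 113 CPM in the Renilla library, a log2 ratio of 0.16 (0.06 to 0.26). Without Hist1h1e the H1 log2 ratio was 0.07 (-0.10 to 0.23). Without Hist1h2al the H2A log2 ratio was 0.08 (-0.02 to 0.18), though in G2/M cells, called as described further on, it was 0.37 (0.24 to 0.49).

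Replication-dependent H3 genes went the other way, with 141 UMIs (11.01 CPM) in the Jumonji library and 260 UMIs (18.03 CPM) in the Renilla library, a log2 ratio of -0.71 (-1.02 to -0.41). Of the 8 H3 members 6 were lower, 5 of them with an interval wholly below 0, and the ratio was -0.68 (-1.04 to -0.33) without Hist1h3e. H2B genes summed to 607 UMIs (47.4 CPM) in the Jumonji library and 780 UMIs (54.1 CPM) in the Renilla library, a log2 ratio of -0.19 (-0.35 to -0.04). Without Hist1h2bc, the H2B ratio was -0.59 (-0.82 to -0.36), with 12 of the 14 H2B members lower in the Jumonji library. Most of the H3 and H2B members had under 100 UMIs. The matching share of all genes with so few UMIs is not given, so these member counts have no background. H4 genes summed to 48.3 CPM in the Jumonji library and 50.3 CPM in the Renilla library, a log2 ratio of -0.06 (-0.21 to 0.10).

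Grouped by annotated end, the 17 members that stop within 100 bases past the stem-loop summed to 1454 UMIs in the Jumonji library and 1706 UMIs in the Renilla library, a log2 ratio of -0.06 (-0.16 to 0.04). Without Hist1h2ap the remaining 16 summed to 309 UMIs in the Jumonji library and 502 UMIs in the Renilla library, a log2 ratio of -0.53 (-0.74 to -0.32). The 18 members that run on had 1516 UMIs in the Jumonji library and 1512 UMIs in the Renilla library, a log2 ratio of 0.17 (0.07 to 0.28). The 13 members with no stem-loop found had 912 UMIs in the Jumonji library and 942 UMIs in the Renilla library, a log2 ratio of 0.12 (-0.0089 to 0.26). Histone type and annotated end overlap in these genes, and their parts in the difference were not tested.

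A member was called higher or lower by size alone, at 1.5-fold or more with at least 100 UMIs in the kept cells of both libraries together, a minimum that 24 members met. Of the 24, 2 were called higher in the Jumonji library, where 9.91% of all 8959 genes with as many UMIs were, and 4 were called lower, where 7.89% of genes were. The first count is near its background, and the second is above it on 4 genes. After every cell was thinned to 10000 UMIs, 14 members still had 100 UMIs, of which 1 was called higher and 0 lower. Without the cells highest in maturation markers, 2 were called higher and 2 lower of 23. The median log2 ratio was 0.05 over the 16 replication-dependent members with at least 100 UMIs, -0.06 over the 8 replacement members and -0.06 over all 8959 genes. Over all 50 replication-dependent members the median was -0.16. The 34 members under 100 UMIs had a median of -0.53, with 7 intervals wholly below 0 and 0 wholly above. The matching share of all genes under 100 UMIs is not given, so these counts have no background.

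Among linker histones, Hist1h1e (chr13:23620629-23622558, minus strand, mm10) had 349 UMIs (27.2 CPM) in the Jumonji library and 204 UMIs (14.1 CPM) in the Renilla library, a log2 ratio of 0.95 (0.69 to 1.20). Hist1h1e overlaps Hist1h2be on the same strand and shares its end with it, so their UMIs may be split between them. Hist1h1b had 261 UMIs (20.4 CPM) in the Jumonji library and 264 UMIs (18.3 CPM) in the Renilla library. Hist1h1c had 217 UMIs in each library, which is 16.9 CPM in the Jumonji library and 15.0 CPM in the Renilla library. The intervals of these 2 genes both held 0, as did that of Hist1h1d, with 73 UMIs in the Jumonji library and 82 UMIs in the Renilla library. Hist1h1a was called lower, with 39 UMIs (3.04 CPM) in the Jumonji library and 71 UMIs (4.92 CPM) in the Renilla library, a log2 ratio of -0.69 (-1.30 to -0.11).

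Among H2A genes, Hist1h2ap had 1145 UMIs (89.4 CPM) in the Jumonji library and 1204 UMIs (83.5 CPM) in the Renilla library, a log2 ratio of 0.10 (-0.02 to 0.22). Hist1h2al had the largest ratio of the 24, 1.40 (0.97 to 1.85), with 148 UMIs (11.6 CPM) in the Jumonji library and 63 UMIs (4.37 CPM) in the Renilla library. GENCODE M21 lists Hist1h2al as a processed pseudogene, and 63% of the 50-base stretches at its end occur in other transcripts, so this value is uncertain as to its source. Hist1h2ae had 79 UMIs in the Jumonji library and 91 UMIs in the Renilla library, and Hist3h2a had 66 UMIs in the Jumonji library and 56 UMIs in the Renilla library. The intervals of both ratios held 0. Hist3h2a overlaps Trim17 on the same strand.

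Among H2B genes, Hist1h2bc had 353 UMIs (27.6 CPM) in the Jumonji library and 351 UMIs (24.3 CPM) in the Renilla library, a log2 ratio of 0.18 (-0.04 to 0.40). Among cells with at least 10000 UMIs that were not maturation-high, the ratio was -0.25 (20.2 CPM in the Jumonji library and 23.9 CPM in the Renilla library). That value leaves out the shallower cells as well as the maturation-high cells, most of which are Jumonji cells. Hist1h2bj was called lower, with 74 UMIs (5.78 CPM) in the Jumonji library and 131 UMIs (9.09 CPM) in the Renilla library, a log2 ratio of -0.65 (-1.08 to -0.23). Hist1h2be had 66 UMIs in the Jumonji library and 74 UMIs in the Renilla library, which is 5.15 CPM in the Jumonji library and 5.13 CPM in the Renilla library. Hist1h2bm, the H2B member with the most UMIs below 100, had 38 UMIs in the Jumonji library and 60 UMIs in the Renilla library.

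Among H3 and H4 genes, Hist1h3e was called lower, with 36 UMIs (2.81 CPM) in the Jumonji library and 70 UMIs (4.85 CPM) in the Renilla library, a log2 ratio of -0.79 (-1.41 to -0.19). It shares its end with Hist1h3f. Hist1h4i had 355 UMIs (27.7 CPM) in the Jumonji library and 438 UMIs (30.4 CPM) in the Renilla library, a log2 ratio of -0.13 (-0.34 to 0.07). Hist4h4 had 78 UMIs in the Jumonji library and 93 UMIs in the Renilla library, and Hist1h4d had 72 UMIs in the Jumonji library and 63 UMIs in the Renilla library. The intervals of all H4 members held 0, including that of Hist1h4c, with 27 UMIs in the Jumonji library and 24 UMIs in the Renilla library.

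Below 100 UMIs, 5 members were at least 2-fold apart with an interval that left out 0, and all 5 were lower in the Jumonji library. How many of all genes with so few UMIs meet the same rule is not given, so the count cannot be read as particular to histone genes. Hist1h3c had 25 UMIs in the Jumonji library and 59 UMIs in the Renilla library, a log2 ratio of -1.07 (-1.80 to -0.37). Hist1h3g had 8 UMIs in the Jumonji library and 24 UMIs in the Renilla library. Hist1h2an, with 6 UMIs in the Jumonji library and 18 UMIs in the Renilla library, had the same log2 ratio as Hist1h3g, -1.41. Both of those are core histone genes on chromosome 13, which holds 40 of the replication-dependent members. Hist1h2bn had 4 UMIs in the Jumonji library and 19 UMIs in the Renilla library. Hist1h2bf had 1 UMI in the Jumonji library and 12 UMIs in the Renilla library, a log2 ratio of -3.41 with an interval of -8.83 to -0.66. Hist1h2ak, the H2A member with the most UMIs below 100, had 43 UMIs in the Jumonji library and 48 UMIs in the Renilla library.

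Replacement histones were counted deeply enough for the intervals of some small ratios to leave out 0. H2afz, which encodes H2A.Z, had 56705 UMIs (4427 CPM) in the Jumonji library and 68581 UMIs (4756 CPM) in the Renilla library, a log2 ratio of -0.10 (-0.12 to -0.09). Its paralogue H2afv had 3980 UMIs (311 CPM) in the Jumonji library and 4966 UMIs (344 CPM) in the Renilla library, a log2 ratio of -0.15 (-0.21 to -0.09). H3f3a had 30688 UMIs (2396 CPM) in the Jumonji library and 29842 UMIs (2070 CPM) in the Renilla library, a log2 ratio of 0.21 (0.19 to 0.23). H3f3b, which encodes the same H3.3 protein, had 14865 UMIs (1160 CPM) in the Jumonji library and 17039 UMIs (1182 CPM) in the Renilla library, a log2 ratio of -0.03 (-0.06 to 0.0056). H3f3aos, annotated on the opposite strand of H3f3a, had 6 UMIs. None of these 4 H2A.Z and H3.3 genes reached 1.5-fold. Among cells with at least 10000 UMIs that were not maturation-high, the H2afz ratio was -0.05. In the same cells H3f3a had 2284 CPM in the Jumonji library and 2064 CPM in the Renilla library. In maturation-high cells of the Jumonji library H3f3a had 3025 CPM.

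H2afx (chr9:44334694-44336077, plus strand, mm10) had 3137 UMIs (245 CPM) in the Jumonji library and 2503 UMIs (174 CPM) in the Renilla library, a log2 ratio of 0.50 (0.42 to 0.57), just under the 1.5-fold line. H2afy2, a macroH2A gene whose product carries a large non-histone domain, was the single replacement member called, with 105 UMIs (8.20 CPM) in the Jumonji library and 219 UMIs (15.2 CPM) in the Renilla library, a log2 ratio of -0.89 (-1.24 to -0.55). H2afy, the other macroH2A gene, had 6361 UMIs (497 CPM) in the Jumonji library and 8104 UMIs (562 CPM) in the Renilla library, a log2 ratio of -0.18 (-0.23 to -0.13). H2afj, the gene of the H2A.J variant, had 5928 UMIs (463 CPM) in the Jumonji library and 6453 UMIs (448 CPM) in the Renilla library, and its interval of -0.0028 to 0.10 held 0.

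**Figure D2:**
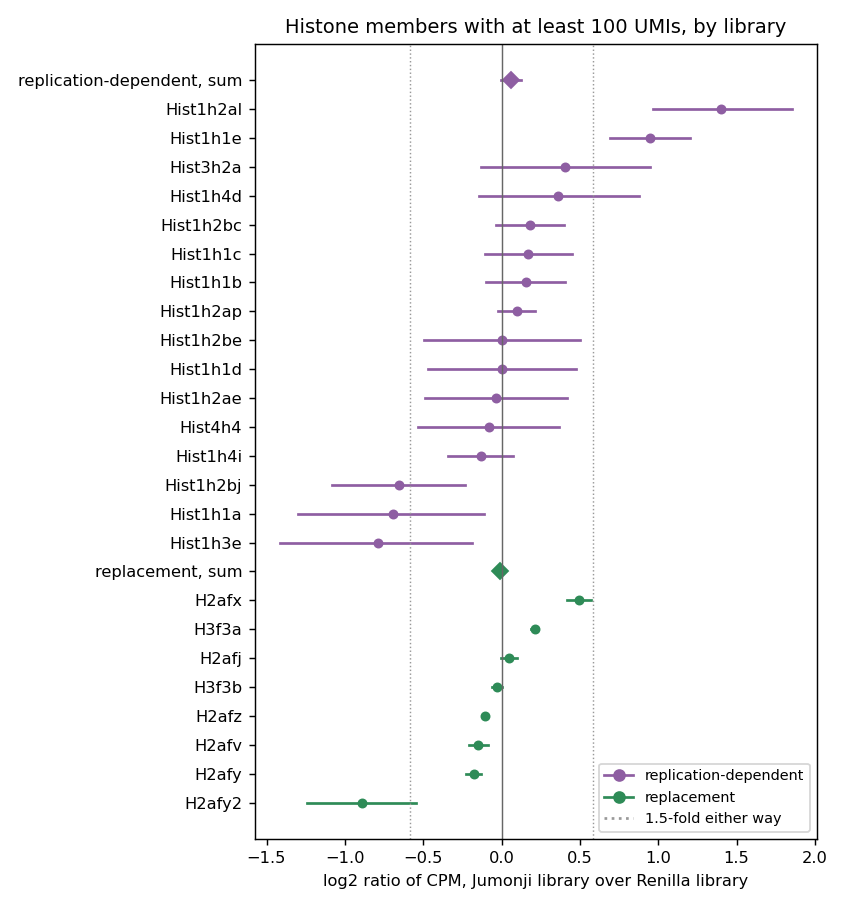
Log2 ratio of CPM, Jumonji library over Renilla library (x axis), for the 24 members with at least 100 UMIs and for both class sums (diamonds), with 95% counting intervals as lines. Both class sums sit at 0 while Hist1h2al (1.40) and Hist1h1e (0.95) lie beyond the dotted 1.5-fold lines on the right and H2afy2 (-0.89), Hist1h3e (-0.79), Hist1h1a (-0.69) and Hist1h2bj (-0.65) on the left.

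Each cell with at least 10000 UMIs was thinned at random to that depth and given a cell cycle phase from the scores of 39 S genes and 51 G2/M genes, none of them a member. In the Jumonji library 182 of 520 cells were called G1, 140 (26.9%) S and 198 (38.1%) G2/M. In the Renilla library 107 of 579 cells (18.5%) were called G1, 205 (35.4%) S and 267 (46.1%) G2/M. A phase is a range of a score. In the Jumonji library 58 cells lay near a limit between calls, and in the Renilla library 103. Over 5 other random thinnings the G1 share ran from 25.4% to 33.3% in the Jumonji library and from 10.2% to 16.9% in the Renilla library. The thinning used here thus gave a higher G1 share than all 5 others in both libraries. Some phase ratios below lay outside the range of the other thinnings, a spread that counting intervals do not cover. Of the G1 cells, 56 in the Jumonji library and 2 in the Renilla library were maturation-high, which means among the 10% of cells with the most UMIs of the 9 maturation markers. The part of these cells in the phase values was not tested, beyond the values given without them.

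Replication-dependent histones were lowest in G1 cells and highest in G2/M cells of both libraries. Their summed level was 156 CPM in G1, 303 CPM in S and 408 CPM in G2/M cells of the Jumonji library, and 179, 277 and 340.3 CPM in the same order in the Renilla library. S over G1 had a log2 ratio of 0.96 (0.81 to 1.11) in the Jumonji library and 0.63 (0.47 to 0.79) in the Renilla library. For G2/M over G1 it was 1.39 (1.25 to 1.53) in the Jumonji library and 0.93 (0.78 to 1.08) in the Renilla library, and G2/M exceeded S by 0.43 (0.32 to 0.54) in the Jumonji library and 0.30 (0.20 to 0.40) in the Renilla library. Over 5 other thinnings the S over G1 ratio ran from 0.85 to 0.98 in the Jumonji library and from 0.37 to 0.64 in the Renilla library. Without Hist1h2ap it was 0.55 in the Jumonji library and 0.28 in the Renilla library. S over G1 and G2/M over G1 share the G1 cells, and median depth differed, from 18274.5 UMIs in G1 to 27230.5 UMIs in G2/M cells of the Jumonji library.

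Summed replacement histones followed the same order with smaller ratios, which in S cells rested on H2afz. Their summed level was 7796 CPM in G1, 9244 CPM in S and 10917 CPM in G2/M cells of the Jumonji library, and 8719, 9299 and 10042 CPM in the same order in the Renilla library. For G2/M over G1 the log2 ratio was 0.49 (0.47 to 0.51) in the Jumonji library and 0.20 (0.18 to 0.23) in the Renilla library. Over 5 other thinnings that ratio ran from 0.50 to 0.58 in the Jumonji library and from 0.22 to 0.27 in the Renilla library. For S over G1 it was 0.25 in the Jumonji library and 0.09 in the Renilla library, and without H2afz it was 0.082 in the Jumonji library and -0.0011 in the Renilla library. The share of histone UMIs from replication-dependent genes was accordingly 1.96% in G1 and 3.60% in G2/M cells of the Jumonji library, and 2.01% in G1 and 3.28% in G2/M cells of the Renilla library. In both libraries the intervals of the G2/M over G1 ratio of the 2 classes did not overlap.

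Read gene by gene with the same 1.5-fold call, 12 of the 16 replication-dependent members past the minimum were higher and 3 lower in S than in G1 cells of the Jumonji library, where 16.4% and 8.38% of all genes were. In the Renilla library 9 were higher and 1 lower, where 13.1% and 6.47% of genes were. From G1 to G2/M, 11 were higher and 1 lower in the Jumonji library (15.9% and 6.42% of genes), and 13 were higher and 1 lower in the Renilla library (14.3% and 5.49% of genes). Both libraries had 9 in common as higher in S (7.42% of genes) and 11 as higher in G2/M (7.57% of genes). The higher counts were above the background in both libraries and the lower ones, of 1 to 3 genes, were not far from it. The median log2 ratio of S over G1 was 2.12 over the 16 members in the Jumonji library and 0.87 in the Renilla library, against 0.06 and 0.07 over all genes. Many of these ratios rest on few G1 UMIs, since the minimum is not per phase. In G1 cells Hist1h1a had 2 UMIs in the Jumonji library and 1 UMI in the Renilla library. Hist4h4 had 5 UMIs in the Jumonji library and 0 UMIs in the Renilla library, where the floor of 3 counts was used. These calls and medians are not given for the other thinnings. Of the 8 replacement members, 3 were higher in S and 3 in G2/M in the Jumonji library, against 1 and 2 in the Renilla library.

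Set between libraries within a phase, the replication-dependent class was lower in Jumonji G1 cells and higher in Jumonji S and G2/M cells. The log2 ratio of the Jumonji over the Renilla library was -0.20 (-0.39 to -0.01) in G1, 0.13 (0.01 to 0.25) in S and 0.26 (0.18 to 0.34) in G2/M cells. Over 5 other thinnings these ran from -0.44 to -0.21 in G1, from 0.07 to 0.14 in S and from 0.24 to 0.26 in G2/M cells. Without Hist1h2ap the G1 value was -0.16 (-0.36 to 0.03). It was 0.03 (-0.26 to 0.33) without Hist1h2ap, Hist1h2bc and Hist1h1c, an interval that also held -0.20. In G1 cells that were not maturation-high, the class had 144 CPM in the Jumonji library and 176 CPM in the Renilla library. The ratios of the replacement class were -0.16 in G1, -0.0085 in S and 0.12 in G2/M cells. Within G1, 4 of the 16 members were called higher and 4 lower, against 14% and 14.4% of genes. Within S, 3 were called higher and 2 lower, against 10.6% and 9.05% of genes, and within G2/M 3 higher and 1 lower, against 9.95% and 9.06%. No such count was far from its background.

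Among types, the H2A sum had the largest G2/M over G1 ratio, with 18.7 CPM in G1, 117 CPM in S and 206 CPM in G2/M cells of the Jumonji library and 23.3, 98.2 and 150 CPM in the same order in the Renilla library. Much of that was Hist1h2ap, without which the H2A log2 ratio of G2/M over G1 was 1.99 (1.54 to 2.47) in the Jumonji library and 1.43 (0.89 to 2.02) in the Renilla library. H1 had 32.7, 76.9 and 99.9 CPM from G1 to G2/M in the Jumonji library and 25.5, 51.9 and 72.8 CPM in the Renilla library, a log2 ratio of G2/M over G1 of 1.61 in the Jumonji library and 1.51 in the Renilla library. H4 had its highest value in S cells, 58.0 CPM in the Jumonji library and 55.6 CPM in the Renilla library, though S and G2/M did not differ beyond counting error. H3 was lower in the Jumonji library in each phase, by log2 ratios of -0.59 in G1, -0.45 in S and -0.55 in G2/M. The interval left out 0 in G2/M cells alone (-0.95 to -0.16).

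H2B was highest in G1, with 69.2, 39.2 and 32.9 CPM from G1 to G2/M in the Jumonji library and 91.1, 54.3 and 42.4 CPM in the Renilla library. This order came from 1 gene. Without Hist1h2bc the remaining 13 H2B members had 11.8, 25.6 and 22.6 CPM from G1 to G2/M in the Jumonji library and 9.07, 34.3 and 33.4 CPM in the Renilla library. By annotated end, members with no stem-loop found had an S over G1 log2 ratio of -0.04 in the Jumonji library and -0.54 in the Renilla library, and without Hist1h2bc the remaining 12 had 2.99 (2.33 to 3.72) in the Jumonji library and 2.94 (2.11 to 3.92) in the Renilla library. Hist1h1b is 1 of those 12. Members that run past the stem-loop had 0.81 (0.59 to 1.04) in the Jumonji library and 0.70 (0.43 to 0.98) in the Renilla library. Members that stop early had 2.59 in the Jumonji library and 2.04 in the Renilla library, and without Hist1h2ap they had 1.04 (0.51 to 1.59) in the Jumonji library and 1.19 (0.68 to 1.73) in the Renilla library.

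**Figure D3:**
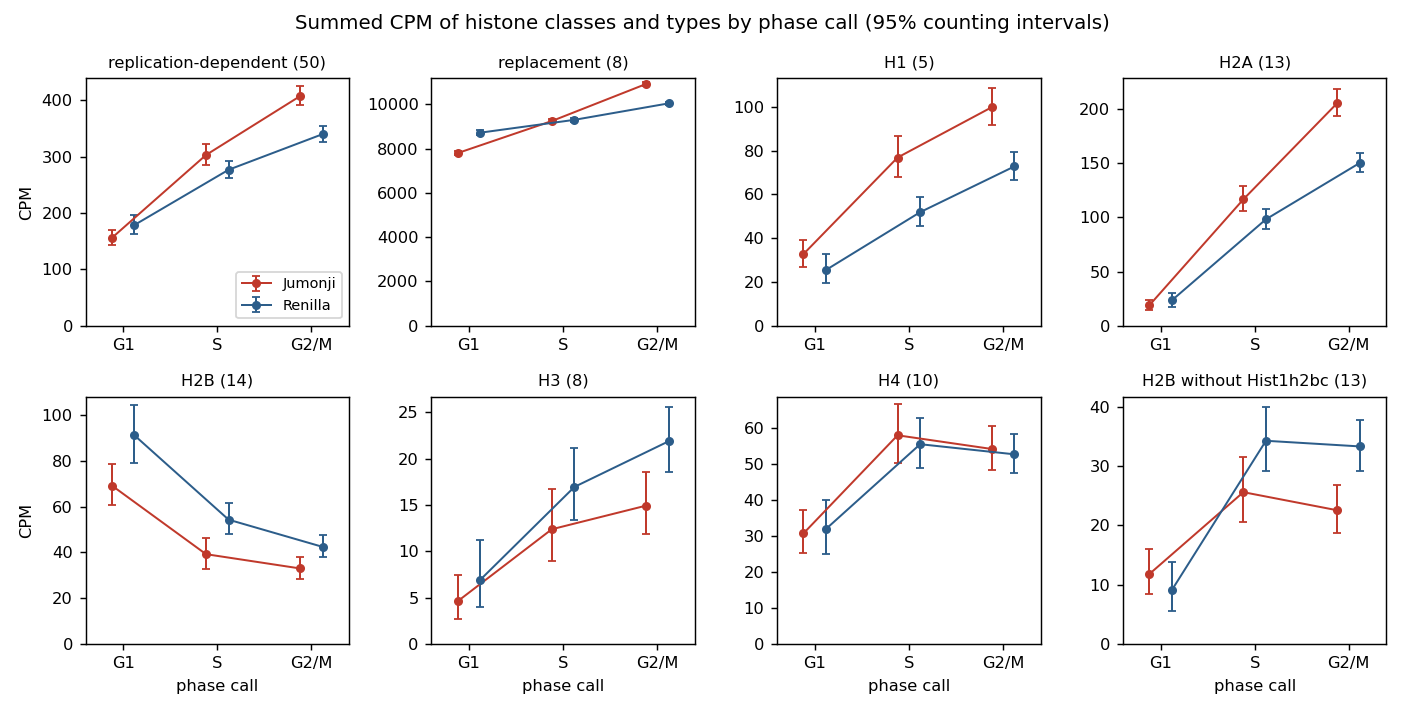
Summed CPM (y axis, from 0) by phase call (x axis) for the replication-dependent and replacement classes and for the replication-dependent types, number of members in brackets, with points for the Jumonji library left of those for the Renilla library and bars for 95% counting intervals. The H2B sum is highest in G1 with Hist1h2bc and lowest in G1 without it, while H2A runs between 18.7 CPM in G1 and 206 CPM in G2/M cells of the Jumonji library.

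Hist1h2ap had 18 UMIs (5.17 CPM) in G1, 280 UMIs (82.5 CPM) in S and 836 UMIs (152 CPM) in G2/M cells of the Jumonji library. It had 23 UMIs (9.93 CPM), 334 UMIs (71.6 CPM) and 826 UMIs (114 CPM) in the same order in the Renilla library. The log2 ratio of G2/M over G1 was 4.88 (4.21 to 5.64) in the Jumonji library and 3.52 (2.93 to 4.19) in the Renilla library, and over 5 other thinnings it ran from 5.25 to 6.12 in the Jumonji library and from 3.31 to 5.52 in the Renilla library. Among the G1 cells of the Jumonji library, the 56 maturation-high cells held 1 of the 18 Hist1h2ap UMIs.

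Hist1h1b had 7 UMIs (2.01 CPM) in G1, 77 UMIs (22.7 CPM) in S and 174 UMIs (31.7 CPM) in G2/M cells of the Jumonji library, and 2 UMIs (0.864 CPM), 72 UMIs (15.4 CPM) and 186 UMIs (25.7 CPM) in the Renilla library. Its log2 ratio of G2/M over G1 was 3.98 (2.90 to 5.31) in the Jumonji library and 4.90 (3.02 to 7.95) in the Renilla library. The ratios rest on few G1 UMIs, and over other thinnings they ran from 4.03 to 6.10 in the Jumonji library and from 3.35 to 5.38 in the Renilla library. Hist1h1b and Hist1h2ap had the largest ratios among the 6 replication-dependent members with at least 300 UMIs.

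Their promoter windows are shown because both were far higher in S and G2/M than in G1 cells. The sequences are 300-base RefSeq windows on GRCm38.p6 that end just inside the gene, and capitals mark CCAAT (or ATTGG, its other strand), TATAAA and AAACACA.
Hist1h2ap (chr13:21833426-21833725, minus strand): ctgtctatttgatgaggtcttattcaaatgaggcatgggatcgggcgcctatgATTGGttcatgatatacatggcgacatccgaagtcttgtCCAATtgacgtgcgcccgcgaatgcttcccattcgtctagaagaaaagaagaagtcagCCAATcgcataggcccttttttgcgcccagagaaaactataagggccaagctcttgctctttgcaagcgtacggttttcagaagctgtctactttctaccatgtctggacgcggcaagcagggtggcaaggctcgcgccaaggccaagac
Hist1h1b (chr13:21780576-21780875, minus strand): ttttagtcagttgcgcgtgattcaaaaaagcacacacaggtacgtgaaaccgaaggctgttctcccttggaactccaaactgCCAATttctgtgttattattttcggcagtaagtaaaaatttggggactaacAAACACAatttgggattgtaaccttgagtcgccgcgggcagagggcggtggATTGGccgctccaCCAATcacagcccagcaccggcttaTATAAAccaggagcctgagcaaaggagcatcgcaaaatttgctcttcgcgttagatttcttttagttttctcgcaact
CCAAT, the letters of the box bound by NF-Y, stood at -197, -158 and -100 in Hist1h2ap and at -168, -66 and -53 in Hist1h1b, counted from the start site to the first base. TATAAA stood at -28 and AAACACA, the letters of the box known from H1 promoters, at -117 in Hist1h1b. Promoter windows were found for 43 replication-dependent and 7 replacement members. On either strand, CCAAT was found in 86.0% of the replication-dependent windows, 85.7% of the replacement windows and 37.4% of all 32851 windows. It was in every window of the H1, H2A, H2B and H3 members that had one, and in 3 of 9 windows of H4 genes. TATAAA was found in 58.1% of replication-dependent, 14.3% of replacement and 13.6% of all windows. AAACACA was in 11.6% of replication-dependent and 7.18% of all windows, and 4 of 5 H1 genes held it. ATTTGCAT, the letters of the octamer, was in 20.9% of replication-dependent and 1.74% of all windows, all of them H2A and H2B genes among the replication-dependent ones. A match of letters is a description and does not show binding.

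Hist1h1e had 6.60 CPM in G1, 28.0 CPM in S and 41.3 CPM in G2/M cells of the Jumonji library, and 6.48, 10.9 and 18.4 CPM in the same order in the Renilla library. Its excess in the Jumonji library was seen in S cells, with a log2 ratio of 1.36 (0.85 to 1.88), and in G2/M cells, with 1.17 (0.85 to 1.49). In G1 cells 23 UMIs in the Jumonji library and 15 UMIs in the Renilla library gave 0.03 (-0.97 to 1.07), too few to tell whether an excess was present. Over 5 other thinnings the G1 ratio ran from 0.07 to 0.54. Hist1h4i, an H4 gene, differed less between phases, with 21.2, 31.8 and 29.1 CPM from G1 to G2/M in the Jumonji library and 23.3, 33.7 and 30.9 CPM in the Renilla library.

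Hist1h2bc ran against its class. It had 200 UMIs (57.4 CPM) in G1, 46 UMIs (13.6 CPM) in S and 57 UMIs (10.4 CPM) in G2/M cells of the Jumonji library, and 190 UMIs (82.1 CPM), 93 UMIs (19.9 CPM) and 65 UMIs (8.998 CPM) in the Renilla library. The log2 ratio of G2/M over G1 was -2.47 (-2.92 to -2.04) in the Jumonji library and -3.19 (-3.62 to -2.78) in the Renilla library, and over other thinnings it stayed between -2.51 and -2.35 in the Jumonji library and between -3.56 and -3.04 in the Renilla library. It was the single replication-dependent member called lower in G2/M in both libraries, as 2.77% of all genes were. Its level was 97.8 CPM in maturation-high G1 cells of the Jumonji library and 45.4 CPM in the other G1 cells. The latter was above the 20.2 CPM of all Jumonji cells with at least 10000 UMIs that were not maturation-high. In the Renilla library, where 2 G1 cells were maturation-high, the other G1 cells had 78.7 CPM.

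Hist1h1c, the other clustered gene known for polyadenylated messages, had 21.8, 12.96 and 16.7 CPM from G1 to G2/M in the Jumonji library and 16.8, 12.4 and 16.5 CPM in the Renilla library. Its S over G1 ratio had an interval below 0 in the Jumonji library (-0.75, -1.32 to -0.20) and one that held 0 in the Renilla library (-0.44, -1.05 to 0.19). Hist3h2a was the third member called lower in S in the Jumonji library, with 21 UMIs in G1 and 8 UMIs in S cells, and it was not called in the Renilla library.

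H2afx differed most among replacement members. It had 308 UMIs (88.4 CPM) in G1, 477 UMIs (141 CPM) in S and 2303 UMIs (419 CPM) in G2/M cells of the Jumonji library, and 232 UMIs (100.2 CPM), 451 UMIs (96.7 CPM) and 1791 UMIs (248 CPM) in the Renilla library. The log2 ratio of G2/M over G1 was 2.24 (2.07 to 2.42) in the Jumonji library and 1.31 (1.11 to 1.51) in the Renilla library. Over 5 other thinnings it ran from 2.47 to 2.65 in the Jumonji library, above that interval, and from 1.25 to 1.51 in the Renilla library. The excess of H2afx in the Jumonji library was seen in S cells, with a log2 ratio of 0.54 (0.35 to 0.73), and in G2/M cells, with 0.76 (0.67 to 0.85). In G1 cells the ratio was -0.18 (-0.43 to 0.07). Over the other thinnings these ratios ran from 0.32 to 0.45 in S, from 0.75 to 0.78 in G2/M and from -0.58 to -0.24 in G1 cells.

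H2afz and H2afv, both genes of H2A.Z, were lowest in G1. H2afz had 3268, 4451 and 5290 CPM from G1 to G2/M in the Jumonji library and 4112, 4696 and 5038 CPM in the Renilla library. H2afv had 191, 328 and 386 CPM in the Jumonji library and 255, 327 and 384 CPM in the Renilla library. Among G1 cells both genes were lower in the Jumonji library, by log2 ratios of -0.33 (-0.37 to -0.29) for H2afz and -0.42 (-0.58 to -0.26) for H2afv. In S and G2/M cells the H2afv ratios were 0.0012 and 0.0064, and their intervals held 0. In G1 cells of the Jumonji library H2afz had 2097 CPM in maturation-high and 3616 CPM in other cells, and in the other G1 cells of the Renilla library it had 4156 CPM.

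The other replacement genes stayed within 1.5-fold between G1 and G2/M. H3f3a had 2341, 2301 and 2467 CPM from G1 to G2/M in the Jumonji library and 2298, 2034 and 2041 CPM in the Renilla library. H3f3b had 1008, 1051 and 1329 CPM in the Jumonji library and 1037, 1132 and 1269 CPM in the Renilla library. H2afj had its lowest value in G2/M cells, 438 CPM in the Jumonji library and 418 CPM in the Renilla library. H2afy had 404, 477 and 581 CPM from G1 to G2/M in the Jumonji library and 452, 515 and 629 CPM in the Renilla library. H2afy2 had its highest value in S cells, 12.7 CPM in the Jumonji library and 18.4 CPM in the Renilla library. It was lower in the Jumonji library in each phase, with an interval that held 0 in S cells. Over 5 other thinnings its log2 ratio ran from -0.97 to -0.57 in G1, from -0.81 to -0.67 in S and from -0.97 to -0.84 in G2/M cells. The ratios of the thinning used here lay outside these ranges.

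**Figure D4:**
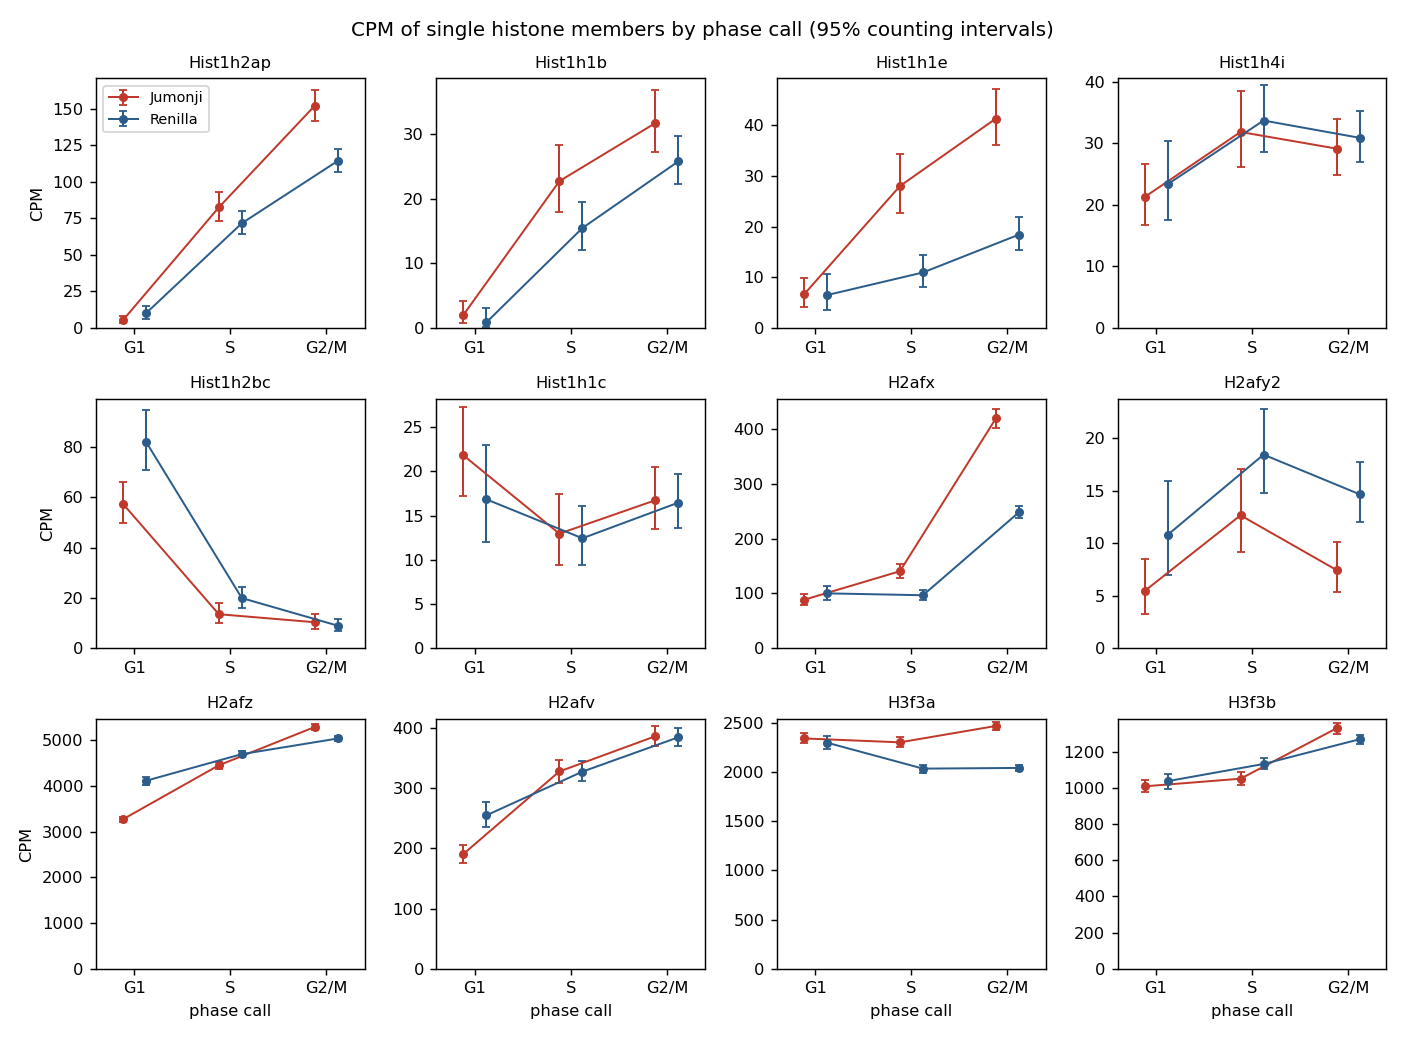
CPM (y axis, from 0) by phase call (x axis) for 12 single members, with points for the Jumonji library left of those for the Renilla library and bars for 95% counting intervals. Hist1h2ap reaches 152 CPM in G2/M cells of the Jumonji library and 114 CPM in those of the Renilla library, while Hist1h2bc is highest in G1 cells, at 57.4 CPM in the Jumonji library and 82.1 CPM in the Renilla library.

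Cells were also placed in 4 states by whether the summed S and G2/M gene counts lay above their medians, a grouping added after the data had been seen. Replication-dependent histones were highest where both sums were high, at 499 CPM in 110 cells of the Jumonji library and 373 CPM in 111 cells of the Renilla library. Where both were low they had 155 CPM in the Jumonji library and 210 CPM in the Renilla library. Hist1h2ap had 181 CPM in cells of the Jumonji library and 142 CPM in cells of the Renilla library with both sums high, and with the G2/M sum alone high it had 125 CPM in the Jumonji library and 97.0 CPM in the Renilla library. H2afx had its maximum in the last of these states, at 446 CPM in the Jumonji library and 262 CPM in the Renilla library.

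Genes that handle histones were read beside the members. Of 20 genes of histone gene transcription and 3′ end processing with at least 100 UMIs, 0 were called higher and 1 lower in the Jumonji library. Between libraries, 9.91% of all genes were called higher and 7.89% lower, and the counts of this list and the next 3 rest on 0 to 2 genes each. The lowest were Coil, the gene of coilin, with 80 UMIs in the Jumonji library and 142 UMIs in the Renilla library (log2 ratio -0.66), and Pou2f1, which encodes an octamer-binding factor (-0.46). The highest were Ccne2, a cyclin gene that also served in the S list (0.49), and Slbp, with 205 CPM in the Jumonji library and 163 CPM in the Renilla library (0.33, 0.25 to 0.42). Slbp had 329 CPM in S and 175 CPM in G2/M cells of the Jumonji library and 224 CPM in S and 127 CPM in G2/M cells of the Renilla library and was higher in S than in G2/M cells in both. By phase, 11 of 19 measured genes of this list were higher in S than in G1 in the Jumonji library (16.4% of all genes) and 6 in the Renilla library (13.1% of all genes).

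Of 14 genes of histone messenger RNA decay, 0 were called higher and 2 lower. Those were Zcchc11, which encodes a terminal uridylyl transferase, with 56 UMIs in the Jumonji library and 135 UMIs in the Renilla library (-1.10, -1.58 to -0.64), and Atr, a checkpoint kinase gene, with 115 UMIs in the Jumonji library and 219 UMIs in the Renilla library (-0.76). The highest were Zcchc6, another uridylyl transferase gene (0.38), and Eri1, which encodes an exonuclease that trims histone message ends (0.34). Of 18 genes of replication-coupled chaperones, 0 were called higher and 2 lower. Set, a histone chaperone gene, had 336 CPM in the Jumonji library and 559 CPM in the Renilla library (-0.73), and Ipo4, which encodes an importin for H3 and H4, had 7.49 CPM in the Jumonji library and 12.2 CPM in the Renilla library (-0.70). The highest were Asf1b (0.32) and Tonsl (0.11), which encode proteins that bind H3 and H4. By phase, 13 of 17 measured genes of replication-coupled chaperones were higher in S than in G1 in the Jumonji library (16.4% of all genes) and 6 in the Renilla library (13.1%).

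Of 23 genes of variant chaperones and remodellers, 0 were called in either direction. The extremes were Srcap, the motor of a complex that deposits H2A.Z (0.43), and Dek, an H3.3 chaperone gene (0.15), against Ruvbl2 (-0.54) and Ino80 (-0.48), subunit genes of remodelling complexes. Of 7 histone genes outside the naming rule, 5 had 0 UMIs in both libraries. H1f0, a replacement linker histone gene, had 66.0 CPM in the Jumonji library and 65.7 CPM in the Renilla library. Cenpa, the gene of the centromeric H3, had 170 CPM in the Jumonji library and 190 CPM in the Renilla library, with 296 CPM in G2/M cells of the Jumonji library and 293 CPM in those of the Renilla library. The median log2 ratios of the 4 larger lists lay between -0.19 and -0.0016, where the median of all 8959 genes was -0.06.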

How the data were processed

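The authors deposited raw UMI counts per gene and cell barcode from 1 Jumonji and 1 Renilla library, made with the 10x 3′ version 2 kit per the labels' protocols. Cell Ranger 1.3.1 and mm10 were used per the submitters' processing notes. The annotation release, and whether counting used the strand, are not stated in the sources at hand, so overlapping and near-identical genes are uncertain.

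A barcode counted as a cell with 500 or more detected genes and a mitochondrial share of UMIs up to 10%, which left 575 Jumonji and 608 Renilla cells and took out 77 and 43 barcodes. Scrublet marked 4 Jumonji and 10 Renilla cells as doublets, and these were kept. UMIs were summed over cells and divided by the library or phase total. Ratios carry exact 95% intervals from the conditional binomial distribution, and a floor of 3 counts replaced a count of 0. Shares carry Clopper-Pearson intervals. Cells below 10000 UMIs (55 Jumonji and 29 Renilla) have no phase, and 4 S and 3 G2/M genes of histone processing, chaperones and centromeres were left out of the phase lists, while Ccne2 and Mcm2 of the pathway lists stayed in.

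Named were all members with at least 100 UMIs, the fullest of each type below that, those at least 2-fold apart with an interval off 0, and the 2 highest and 2 lowest genes of each pathway list plus those called. Phase values are given for members with at least 300 UMIs, and for Hist3h2a, which was named after its values were seen. Members and lists were chosen with earlier results of these data known.

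Stem-loops were searched as 16-base hairpins in the GENCODE M21 transcripts of each gene. The transcript running furthest past a stem-loop was used, or the longest where none was found. RefSeq promoter windows were matched by gene identifier for 50 of 58 members. Counts for the Jumonji and Renilla libraries were simulated with counting error alone and with changes set well beyond the 1.5-fold call. In them, 195 of 195 changed genes past the minimum and 20 of 8695 unchanged genes were called, and 95.29% of intervals held the true ratio. With no spread between cells or cultures and no small changes simulated, these values check the calculation and not the calls on the real counts. Alternatives covered the cell filter, doublets, depth, scaling, phase calls and minimum counts. Python 3.11.15, scanpy 1.11.5, numpy 2.4.6, scipy 1.17.1 and pandas 2.3.3 were used.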

Additional observations from a re-analysis of the deposited data

Results flagged for a closer look

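Several ratios between libraries had opposite signs in different phases, each with a counting interval that left out 0, although the differences themselves were not tested. For the replication-dependent sum, the log2 ratio of Jumonji over Renilla was -0.20 in G1, 0.13 in S and 0.26 in G2/M cells. Without Hist1h2ap, Hist1h2bc and Hist1h1c the G1 ratio was 0.03 (-0.26 to 0.33), an interval that also held -0.20. The replacement sum had -0.16 in G1 and 0.12 in G2/M cells. H2afz had -0.33 in G1 and -0.08 in S cells, against 0.07 in G2/M cells. H3f3b had -0.11 in S and 0.07 in G2/M cells. The G2/M over G1 ratio of H3f3a was 0.08 in the Jumonji library and -0.17 in the Renilla library.

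The barcodes left out for their mitochondrial share also held histone UMIs, in 77 Jumonji and 43 Renilla barcodes. Above the level of the Renilla barcodes stood the replacement sum (log2 ratio 0.34, with 2218 UMIs in Jumonji and 1050 UMIs in Renilla barcodes), H3f3a (0.46), H2afz (0.77), H2afx (1.18) and Hist1h4i (1.72, with 22 UMIs in Jumonji and 4 UMIs in Renilla barcodes). Hist1h2bc had 12 UMIs in Jumonji and 0 UMIs in Renilla barcodes. With a floor of 3 counts in place of 0 its log2 ratio was 1.26, and its interval ran from 0.73 with no upper end. Lower in the Jumonji barcodes, with intervals below 0, were Hist1h1b (-2.20), Hist1h2ap (-2.06), H2afj (-0.75), H2afv (-0.68) and H2afy (-0.40). The replication-dependent sum was lower there too, at 341 CPM in Jumonji and 550.3 CPM in Renilla barcodes.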

How the results depend on the processing

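For the 14 main results, 84 alternative values stayed within their limits, 49 moved, and 1 value whose own interval had left out 0 turned its sign. The ratios of the Jumonji over the Renilla library, whose intervals held 0, changed sign in several of the values below. Replication-dependent histones, Jumonji over Renilla, had a log2 ratio of -0.050 in cells thinned to 10000 UMIs and 0.24 with H2afx counted as replication-dependent. Without Hist1h2ap, their S over G1 ratio was 0.55 in the Jumonji and 0.28 in the Renilla library, and G2/M over G1 was 0.76 in the Jumonji and 0.42 in the Renilla library. The 4 states hold no phase calls, so cells with both sums low stood in for G1. Cells with the S sum alone high had a log2 ratio over them of 0.39 in the Jumonji and 0.24 in the Renilla library. With the G2/M sum alone high it was 1.18 in the Jumonji and 0.60 in the Renilla library. These contrasts leave out the cells with both sums high. With H2afx added, G2/M over G1 was 1.76 in the Jumonji library and S over G1 was 0.42 in the Renilla library. In the Renilla library, S over G1 was 0.45 with unthinned calls and 0.42 with another thinning draw, in which G2/M over G1 was 0.73.

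Replacement histones, Jumonji over Renilla, had -0.021 in thinned cells, 0.010 without the maturation-high cells, 0.051 with median-of-ratios scaling, 0.083 without H2afz and -0.018 without H2afx. The value of 0.010 also leaves out the kept cells below 10000 UMIs. S over G1 in the Jumonji library was 0.30 with unthinned calls, 0.27 with the full phase lists, 0.082 without H2afz, 0.20 without the maturation-high cells and 0.31 with another draw. S over G1 in the Renilla library was 0.13 with unthinned calls, 0.067 in thinned UMIs, 0.15 with another draw and -0.0011, a turned sign, without H2afz. G2/M over G1 in the Jumonji library was 0.55 with unthinned calls, 0.51 with the full lists, 0.52 in thinned UMIs and 0.31 without H2afz. It was 0.45 without H2afx, 0.43 without the maturation-high cells and 0.54 with another draw. In the Renilla library it was 0.26 with unthinned calls, 0.23 with the full lists, 0.12 without H2afz and 0.27 with another draw. In the 4 states, the Jumonji ratio of cells with the G2/M sum alone high over those with both sums low was 0.53.

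Members called higher numbered 1 in thinned cells, 4 with all members of the rule and 1 at 2-fold. Members called lower numbered 0 in thinned cells, where fewer pass the minimum, 2 without the maturation-high cells, 7 at a minimum of 50 UMIs, 20 with all members and 0 at 2-fold. The share of all genes called under these alternatives is not given, so the counts have no background. The median log2 ratio of replication-dependent members was 0.052 with at least 100 UMIs. Except where construction shows it, the cause was not tested. The maturation, draw and 4-state alternatives were chosen after seeing the data. No paired analysis was possible because the groups share only 1 replicate number. Depth limits the replication-dependent genes most: 34 of 50 had under 100 UMIs.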
